A study of Mus musculus with 6 samples.

Results

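The 10 genes described here mark or maintain the base of the colonic crypt: Lgr5, Rnf43, Ascl2, Sox9, Smoc2, Rgmb, Cd44, Prom1 and the receptors Ephb2 and Ephb3. They were chosen by symbol, and every probe that the platform annotation assigns to them was used, 26 of 45281 probes. The annotation used here names no probe for Ephb2, so its level is not analysed here, and the account of levels covers 9 genes. Ephb2 enters only the search of promoter sequences. Their levels were compared between Setd2 KO colon (KO 1, KO 2 and KO 3) and control colon (control 1, control 2 and control 3), all from C57BL/6 mice aged 6 weeks, with 1 Illumina bead array for each sample. Setd2 encodes the enzyme that trimethylates lysine 36 of histone H3. How the deletion was made, and whether it was limited to a cell type, is not given in the labels, which also do not say that each sample came from a different animal. The p-values therefore measure only the spread between these samples.

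Crypts of the colon are renewed by stem cells at their base, which are kept by Wnt and R-spondin signals from the surrounding stroma. R-spondins bind Lgr receptors and hold back the ubiquitin ligases Rnf43 and Znrf3, which otherwise remove Wnt receptors from the cell surface. EphB receptors are high at the crypt base and their ephrin-B ligands are high towards the lumen, and repulsion between them helps to keep proliferating and differentiated cells apart. Several of these genes are also used outside the epithelium: Cd44 is a hyaluronan receptor of leukocytes as well, and Smoc2 is made by stromal cells too.

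In whole colon RNA none of the 9 genes passed the test between KO and control. Prom1, Ascl2 and Rgmb had the largest differences in means, by 1.95, 1.95 and 1.58 on the log2 scale, all higher in KO, but control 2 was at the floor for Prom1 and Ascl2, so these are no measured folds. Without that array the 3 genes differed by -0.02, 0.46 and 0.73. Sox9 differed by -0.21. In limma, 0 of 9 passed a Benjamini-Hochberg adjusted p of 0.05 (0% of all 18918 features passed) and 0 of 9 had an unadjusted p under 0.05 (4.3% of all features). For 6 genes the mean was higher in KO and for 3 it was lower, where 44.6% of all features were higher. The median log2 difference, KO minus control, was 0.54 over the 9 genes and -0.09 over all features. For 8 of the 9 genes, all but Rgmb, the difference was smaller than the larger of the 2 group SDs. Without control 2 the median was -0.02 and 4 of 9 genes were higher in KO. RNA came from whole colon, so fewer cells of a type and less RNA per cell cannot be told apart.

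A log2 value of 0 here is the floor of 1 to which the deposited intensities were cut, and values at the floor have no order among themselves. Of the 26 probes, 16 were at the floor on at least 1 array, 1 was at the floor on all 6, and 3 read over 64 on every array. Those 3 were the brightest Sox9 probe and both bright Cd44 probes. A total of 22 probes, covering all 9 genes, passed the filter on dim probes and were tested. The remaining 4 are given as values. Unless another probe is named, values are those of the brightest probe of a gene.

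Control 2 stood apart from the other arrays. At the floor were 41.6% of its probes, against 33.5% to 36.9% on the others. It was the lowest array for 5 of the 9 genes (Lgr5, Ascl2, Smoc2, Rgmb and Prom1), where it was the lowest for 23.1% of all features and the highest for 42.2% (10.4% to 12.9% on the others). The mean log2 level of the 9 genes was 5.22, 4.73 and 5.17 on KO 1, KO 2 and KO 3, against 5.11, 3.22 and 4.94 on control 1, control 2 and control 3. Leaving out control 2, the means of single control arrays lay within the range of the KO arrays. The targeted gene was lower in KO, with intensities of 201, 119 and 146 on its brightest probe on the KO arrays and 374, 600 and 329 on the control arrays (log2 difference -1.47, limma adjusted p = 0.786). As the mean of all tested Setd2 probes the difference was -0.71 (limma adjusted p = 0.927). Where this probe lies relative to the deleted part is not known.

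Markers of the exocrine pancreas also divided the arrays. The 10 measured, digestive enzymes such as the elastase Cela2a, had summed log2 levels of 100.02, 92.7 and 23.9 on KO 1, KO 2 and KO 3, against 127, 98.2 and 25.0 on control 1, control 2 and control 3. KO 3 and control 3 were thus far below the other 4 arrays, with 5 and 3 of the markers at the floor. The mean was lower in KO for all 10 (median difference -1.17 in log2, 0 called by limma). The median over the 9 crypt genes was 0.28 without KO 3 and 0.89 without control 3, and the part of these markers in it was not tested.

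**Figure D1:**
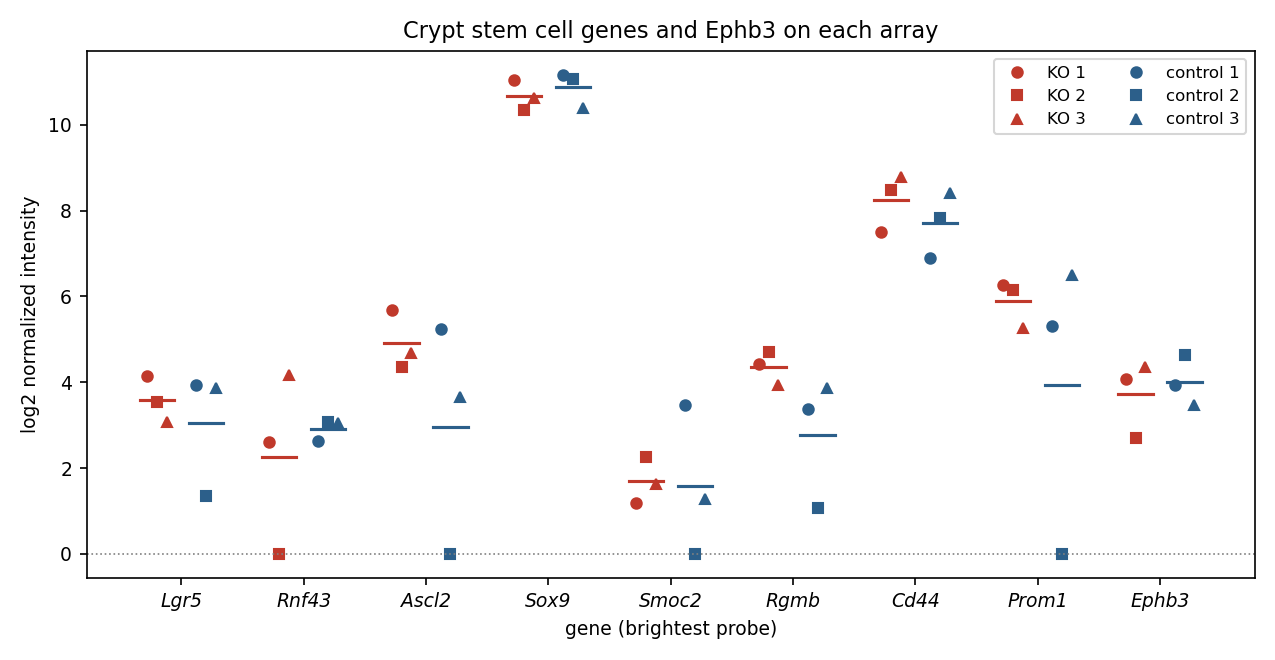
Log2 normalized intensity of the brightest probe of each gene (vertical axis) on the 3 KO arrays (red) and the 3 control arrays (blue), with horizontal bars at group means and a dotted line at the floor. Control 2, the blue square, is at the floor for Ascl2, Smoc2 and Prom1, and the groups overlap for all genes except Rgmb.

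Lgr5, the R-spondin receptor that marks crypt base stem cells, had intensities of 17.7, 11.6 and 8.47 on the KO arrays and 15.3, 2.53 and 14.6 on the control arrays. KO 1 was the highest and control 2 the lowest of the 6, and the groups overlapped. Its log2 level was 3.59 ± 0.53 (SD, n = 3) in KO and 3.05 ± 1.48 in control. The difference was 0.54 with a 95% interval from -1.37 to 2.44 (limma adjusted p = 0.942), so the data allow between 0.388 and 5.44 times the control level. Without control 2 the difference was -0.32, with an interval from -1.38 to 0.75. The second Lgr5 probe was at the floor on all 6 arrays and gives no level. Rnf43, the ligase on which Lgr5 and R-spondin act, had intensities of 6.10, 1 and 18.1 on the KO arrays and 6.22, 8.39 and 8.28 on the control arrays. KO held both the highest and the lowest value, KO 2 at the floor. The difference was -0.66 with an interval from -3.12 to 1.80 (limma adjusted p = 0.943), and without KO 2 it was 0.47.

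Among the transcription factors, Ascl2, which is required for the stem cell state of the crypt base, had intensities of 51.7, 20.6 and 25.8 on the KO arrays and 37.8, 1 and 12.7 on the control arrays. KO 1 and control 1 were the highest of their groups and the groups overlapped. Its log2 level was 4.92 ± 0.69 (SD, n = 3) in KO and 2.97 ± 2.69 in control, where the SD came from control 2 at the floor. The difference of 1.95 (SE 1.31, limma adjusted p = 0.940) fell to 0.46 without control 2. The second Ascl2 probe differed by 0.34 and the third, near the floor, by -0.28. The order of arrays was partly shared by the first and the second probe: KO 1 was the highest and control 2 the lowest on both, whereas on the third control 2 was the highest.

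Sox9, a factor of crypt base progenitors that is also used in other tissues, gave the narrowest interval of the 9 genes on its brightest probe. Intensities were 2104, 1298 and 1577 on the KO arrays and 2300, 2162 and 1337 on the control arrays. The ranges of the groups nearly coincided. The log2 level was 10.67 ± 0.35 (SD, n = 3) in KO and 10.88 ± 0.43 in control, and the difference was -0.21 with an interval from -1.24 to 0.82 (limma adjusted p = 0.950). The interval of the ratio reached from 0.423 to 1.77 times control. The dimmer Sox9 probe read 46.6, 38.6 and 60.2 on the KO arrays and 45.5, 13.0 and 40.7 on the control arrays, a difference of 0.72 (limma adjusted p = 0.921), and 0.15 without control 2. Control 2 was low on this probe and among the higher arrays on the bright probe, so the Sox9 probes disagreed about it.

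Smoc2, a secreted matrix protein enriched in Lgr5 cells, had 1 probe, and it was close to the floor. Intensities were 2.28, 4.80 and 3.09 on the KO arrays and 11.0, 1 and 2.42 on the control arrays. Control held both the highest and the lowest value. The log2 difference was 0.11 with an interval from -2.05 to 2.28 (limma adjusted p = 0.989). Its sign changed when control 2, control 3 or KO 2 was left out.

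Rgmb, a membrane-anchored co-receptor for BMP ligands, was the only one of the 9 genes whose groups did not overlap (1 of 9, against 8.68% of all features). Intensities were 21.3, 25.9 and 15.3 on the KO arrays and 10.4, 2.09 and 14.5 on the control arrays. The lowest KO array, KO 3, was close to the highest control array, control 3. The log2 level was 4.35 ± 0.38 (SD, n = 3) in KO and 2.77 ± 1.49 in control. The difference of 1.58 (SE 0.78, interval -0.30 to 3.46) did not pass (limma adjusted p = 0.940), and it was 0.73 without control 2 (interval -0.25 to 1.71). The groups still did not overlap then, as for 16.1% of all features. A dimmer Rgmb probe (ILMN_2941052) differed by 1.14, with 9.30, 13.5 and 1.89 on the KO arrays and 4.73, 1 and 4.66 on the control arrays. The remaining probe (ILMN_1235522) differed by -0.43. KO 3 was the lowest KO array on all 3 Rgmb probes.

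**Figure D2:**
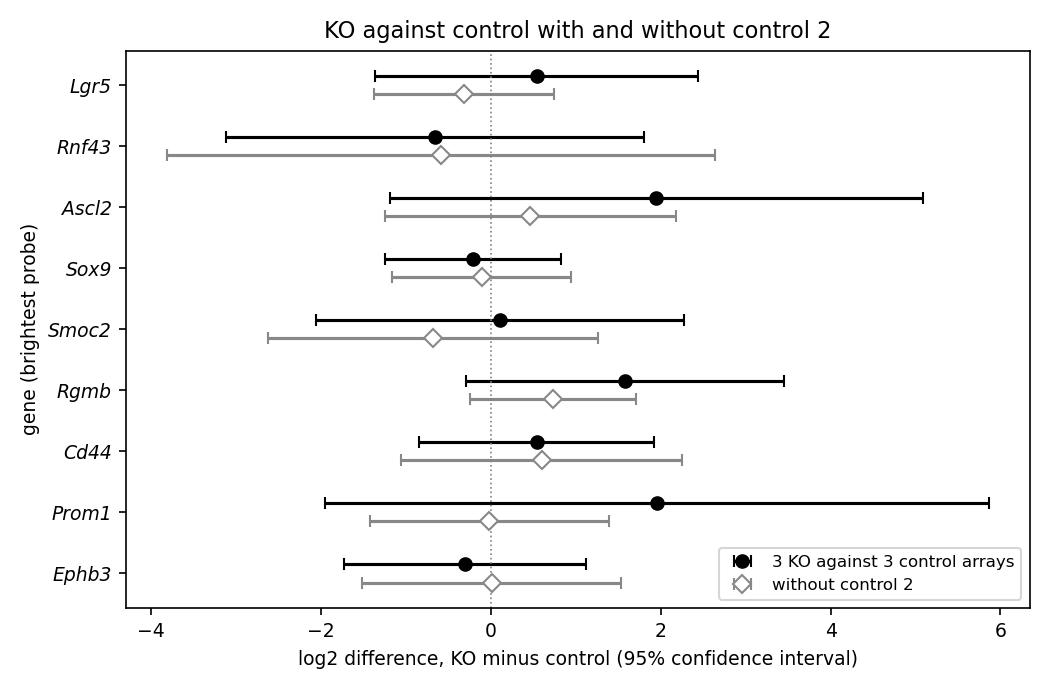
Log2 difference, KO minus control, of the brightest probe of each gene (horizontal axis) with its 95% confidence interval from limma. Black circles use all 6 arrays and open diamonds leave out control 2: every interval crosses 0, and the differences of Ascl2, Prom1 and Rgmb shrink from 1.95, 1.95 and 1.58 to 0.46, -0.02 and 0.73.

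Cd44, the hyaluronan receptor and Wnt target, had 9 probes, of which 8 were tested. The brightest (ILMN_1223697) read 180, 357 and 438 on the KO arrays and 120, 227 and 338 on the control arrays. The groups overlapped. Its log2 level was 8.25 ± 0.67 (SD, n = 3) in KO and 7.71 ± 0.76 in control, a difference of 0.54 with an interval from -0.84 to 1.92 (limma adjusted p = 0.940). It was 0.14 without control 1, 0.28 without KO 3, 0.89 without control 3 and 0.92 without KO 1, and 0.20 as the mean of all tested Cd44 probes. The second bright probe (ILMN_3114585) went the other way, with 76.5, 223 and 325 on the KO arrays and 82.1, 937 and 239 on the control arrays. Control 2 stood far above the others on that probe and in the middle of the 6 on the first. The difference there was -0.58, and 0.34 without control 2.

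The 6 dimmer Cd44 probes that were tested differed by -2.42 to 1.99. The probe at the low end (ILMN_2697830) had the smallest unadjusted p of all 22 tested probes, 0.0165, with a limma adjusted p of 0.829 (0% of 27168 probes passed and 4.39% had an unadjusted p under 0.05). It read 2.74, 1 and 1 on the KO arrays and 3.99, 18.9 and 5.53 on the control arrays, so with 2 KO arrays at the floor this is no measured fold. The Cd44 probe that did not pass the filter read 5.92, 4.47 and 1.36 on the KO arrays and 1 on each control array. In all, 4 tested Cd44 probes were higher and 4 lower in KO. The transcript isoforms that each probe reads are not given in the annotation used here.

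Prom1, the pentaspan membrane protein also called CD133, had intensities of 77.2, 71.1 and 38.2 on the KO arrays and 39.7, 1 and 91.1 on the control arrays. Control held the highest and the lowest array. The log2 level was 5.89 ± 0.56 (SD, n = 3) in KO and 3.94 ± 3.46 in control, and the difference of 1.95 had the widest interval of the 9 genes, -1.96 to 5.86 (limma adjusted p = 0.940). Without control 2 it was -0.02, with an interval from -1.42 to 1.39. The second Prom1 probe differed by -1.03, with control 2 the highest array and KO 3 at the floor. The third was not tested and lay near the floor in both groups.

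Ephb3, a receptor tyrosine kinase of the EphB family, had intensities of 17.0, 6.55 and 20.4 on the KO arrays and 15.4, 24.9 and 11.1 on the control arrays. KO 2 was the lowest and control 2 the highest of the 6. The log2 level was 3.72 ± 0.88 (SD, n = 3) in KO and 4.02 ± 0.59 in control, a difference of -0.30 with an interval from -1.73 to 1.13 (limma adjusted p = 0.950). It was 0.01 without control 2 and 0.20 without KO 2. The group of 9 thus held 5 genes with the lowest value on control 2 and 1, Ephb3, with its highest there, against 42.2% of all features highest on control 2.

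Over all tested probes, 12 were higher and 10 lower in KO, where 47.9% of the 27168 probes tested were higher. For the 5 genes with more than 1 tested probe (Ascl2, Rgmb, Sox9, Cd44 and Prom1), at least 1 probe went each way. Groups did not overlap for 2 of the 22 probes, 1 of Rgmb and 1 of Cd44, against 9.02% of all probes. The limma adjusted p of the 22 probes lay between 0.829 and 0.988.

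**Figure D3:**
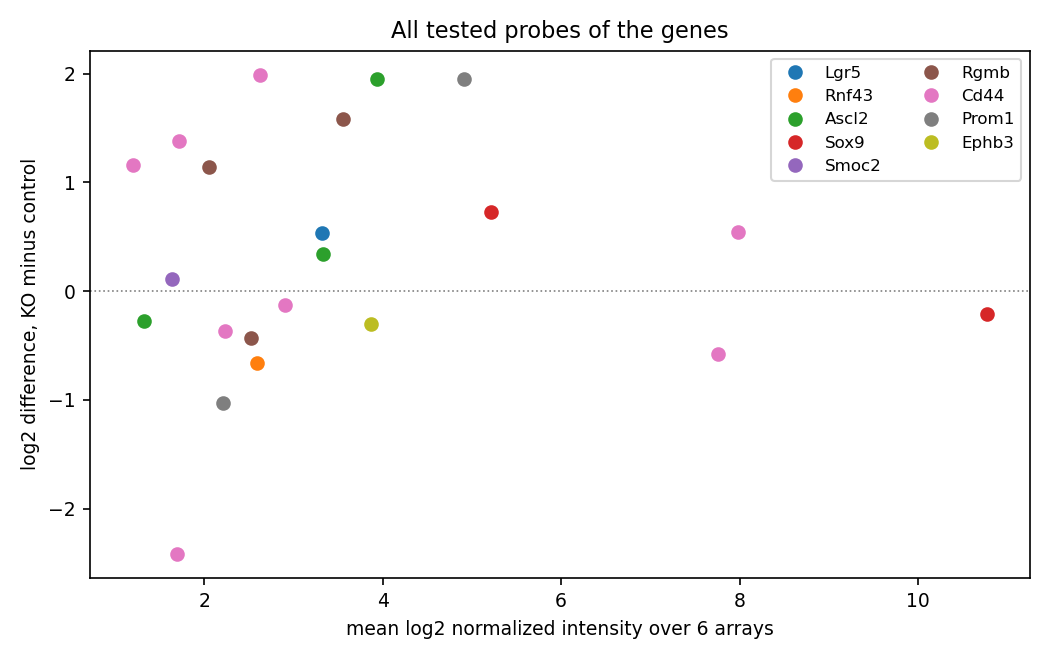
Log2 difference, KO minus control (vertical axis), of each of the 22 tested probes against its mean log2 intensity over the 6 arrays (horizontal axis), with 1 colour for each gene. The 3 brightest probes, of Sox9 and Cd44, differ by -0.58 to 0.54, and the dimmer probes spread from -2.42 to 1.99.

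The windows of 250 bases before the annotated starts of these genes were searched for the binding motif of TCF/LEF factors, which carry the Wnt signal to DNA. The promoter set used (GRCm38.p6) held 11 such windows for 7 of the 10 genes: Ascl2, Rgmb, Cd44, Ephb2, Ephb3, Rnf43 and Prom1. Rgmb, Rnf43 and Prom1 had more than 1 window each, and some of the Rgmb windows overlapped in part. The windows are thus not all separate sequences. The motif CTTTGNN, with A or T at both last places and on either strand, was in 0 of the 11 windows and in 14.8% of all 32851 windows, at a median GC content of 59.2% and 52.4%. The part of base composition in this was not tested. Its core CTTTG was in 2 of the 11, 1 of Cd44 and 1 of Rgmb, and in 48.6% of all. No match says only that these letters are not in this window. The windows shown are 1 each of Ascl2 and Rgmb, which had 2 of the 3 largest differences, and of Cd44, which had the most probes. They run 5′ to 3′ along the gene's strand, all 3 on the minus strand, and capitals mark the core, read here as CAAAG from the other strand.
Ascl2 chr7:142969265-142969514: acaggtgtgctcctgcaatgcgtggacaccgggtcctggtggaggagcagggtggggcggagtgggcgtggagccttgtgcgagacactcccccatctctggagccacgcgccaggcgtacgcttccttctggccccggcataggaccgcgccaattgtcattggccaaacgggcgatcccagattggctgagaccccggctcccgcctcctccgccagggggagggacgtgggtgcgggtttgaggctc
Rgmb chr17:15831247-15831496: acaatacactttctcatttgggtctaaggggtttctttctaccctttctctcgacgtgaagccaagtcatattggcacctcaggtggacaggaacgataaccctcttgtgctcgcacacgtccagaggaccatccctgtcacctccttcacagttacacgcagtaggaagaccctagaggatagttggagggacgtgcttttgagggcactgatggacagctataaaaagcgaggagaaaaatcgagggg
Cd44 chr2:102901666-102901915: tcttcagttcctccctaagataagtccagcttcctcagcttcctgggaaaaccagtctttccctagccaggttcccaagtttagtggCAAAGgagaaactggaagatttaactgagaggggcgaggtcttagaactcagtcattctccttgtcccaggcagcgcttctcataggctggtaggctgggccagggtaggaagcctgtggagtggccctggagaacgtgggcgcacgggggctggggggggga
In the Cd44 window the core began 163 bases before the start. The Ascl2 window and the Rgmb window shown held none. Of the 3 Rgmb windows, another, not shown, held the core 16 bases before its start.

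Other genes of the same pathways were taken from fixed lists. Of 21 further crypt stem and progenitor genes, 15 were measured, 11 higher and 4 lower in KO. Their median log2 difference was 0.42, with 0 called by limma and none at an unadjusted p under 0.05. Lrig1, a negative regulator of ErbB receptors in stem cells, measured 9.23, 9.19 and 8.82 (log2) on the KO arrays and 8.64, 6.63 and 8.65 on the control arrays, a difference of 1.11 (limma adjusted p = 0.940). Mex3a, an RNA-binding protein of slowly cycling Lgr5 cells, differed by 1.03, and Aqp4, a water channel, by 1.06. Control 2 was the lowest of the 6 arrays for each of these 3 genes, and without it they differed by 0.43, 0.47 and 0.70.

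Of 19 further Wnt target genes, 16 were measured, 12 higher and 4 lower, with a median difference of 0.33 and 0 called by limma (1 higher and 1 lower at an unadjusted p under 0.05). Axin2, the feedback inhibitor widely read as a Wnt reporter, differed by 0.33 (limma adjusted p = 0.940), and the cyclin gene Ccnd1 by 0.35, both picked as well-known targets after their values were seen. Myc was at 2.80, 3.15 and 1.89 (log2) on the KO arrays and listed at the floor on each of the 3 control arrays (limma adjusted p = 0.400). Bambi, a pseudoreceptor for BMP signals, was at the floor on KO 1 and KO 2 and at 1.13 on KO 3, against 1.99, 2.07 and 2.81 on the control arrays (limma adjusted p = 0.617). Both probes lay near the floor. Wif1, a secreted Wnt inhibitor, differed by 1.38 with 2 control arrays at the floor (2.30 without control 3).

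Of 12 other Eph receptors 10 were measured, 5 higher and 5 lower, with a median of 0.15 and 0 called by limma (1 lower at an unadjusted p under 0.05). That gene, Epha4, measured 2.47, 0 and 1.24 on the KO arrays and 3.01, 3.86 and 2.92 on the control arrays (log2, limma adjusted p = 0.940). Epha1 measured 7.19, 7.16 and 7.63 on the KO arrays and 6.09 and 7.50 on control 1 and control 3, with control 2 at the floor. Ephb6 differed by -1.23 near the floor, and by -2.35 without control 3 and -0.56 without control 1. Of 8 ephrin ligands 6 were measured, 2 higher and 4 lower, with a median of -0.16 and 0 called by limma, also at an unadjusted p. The ligands Efna4, Efnb3 and Efna1 differed by 0.71, 0.83 and -0.40. Leaving out single arrays, Efna4 ranged from 0.26 (without control 2) to 1.03, Efnb3 from 0.14 (without KO 3) to 1.54 (without KO 2) and Efna1 from -0.72 (without control 1) to -0.12 (without control 2). Of 6 further R-spondin and Lgr genes 2 passed the filter, Rspo3 with a difference of 0.87 (-0.38 without control 3) and Rspo4 with 0.52, neither called.

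Of 22 proliferation genes 19 were measured, 12 higher and 7 lower, with a median of 0.11. By limma 0 were called, also at an unadjusted p. The mitotic kinases Aurkb and Cdk1 differed by 0.91 and 1.85 (0.53 and 0.59 without control 2) and the cyclin Ccnb2, near the floor, by -1.62 (-2.53 without control 2 and -1.02 without control 1). Mean log2 levels of this list were 6.44, 7.06 and 7.03 on the KO arrays and 6.65, 5.94 and 6.91 on the control arrays. On control 2, 3 of the list were at the floor, Top2a and Mcm3 among them. Others, such as Rrm2 (7.02) and Mcm7 (7.29, log2), were highest of the 6 arrays there. These examples were picked after their values were seen.

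Markers of the other cells of the colon wall were set beside the 9 genes. The summed log2 level of 12 pan-epithelial genes was 132 to 135 on the KO arrays and 128 to 135 on the control arrays, with none at the floor. These genes were split on control 2. Krt19 (9.05) and Cdx1 (7.74) were lowest of the 6 arrays there, whereas Cdh1 (10.46) and Cdx2 (12.47, log2) were highest. Macrophage and myeloid markers, of which 8 of 10 measured were higher in KO, summed to 43.1 to 55.7 on the KO arrays. On control 1 and control 3 they summed to 55.9 and 50.1, and on control 2 to 26.4. With control 2 left out, the mean of each of these markers was lower in KO. On control 2, 3 of them were at the floor, the macrophage lysozyme Lyz2 among them. The macrophage marker Adgre1 was instead highest of the 6 arrays on control 2 (4.34 in log2). Absorptive colonocyte markers, 12 of 12 higher, summed to 131 to 139 on the KO arrays and 112 to 129 on the control arrays, the lowest again on control 2. Fibroblast and stromal markers, 7 of 13 higher, summed to 74.5 to 91.1 on the KO arrays, against 68.8 to 82.0 on control arrays. On control 2, Col1a1 and Vim were at the floor, whereas Col1a2 (7.23) and Col3a1 (7.46, log2) were highest of the 6 arrays there. Smooth muscle markers, 11 of 12 higher, summed to 120.1 to 130.3 on the KO arrays and 114 to 125 on the control arrays. T cell and NK markers, 9 of 11 lower, summed to 54.6 to 55.7 on the KO arrays, against 58.4 to 62.3 on control arrays. B cell and plasma cell markers, 6 of 7 lower, summed to 21.4, 32.5 and 23.0 on KO 1, KO 2 and KO 3. On control 1, control 2 and control 3 the sums were 42.0, 23.6 and 18.7. Small intestine and Paneth markers, 7 of 12 higher, summed to 84.3, 56.2 and 63.4 on KO 1, KO 2 and KO 3. Their sums on control 1, control 2 and control 3 were 48.1, 62.9 and 69.8. Enteroendocrine markers, 10 of 12 higher, summed to 75.9 to 82.2 on the KO arrays and 70.7 to 75.0 on control arrays. The remaining lists were goblet and deep secretory (6 of 14 higher), tuft (5 of 8), endothelial (4 of 10), and enteric neuron and glia markers (5 of 8). The part of all these markers in the levels of the 9 genes was not tested.

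**Figure D4:**
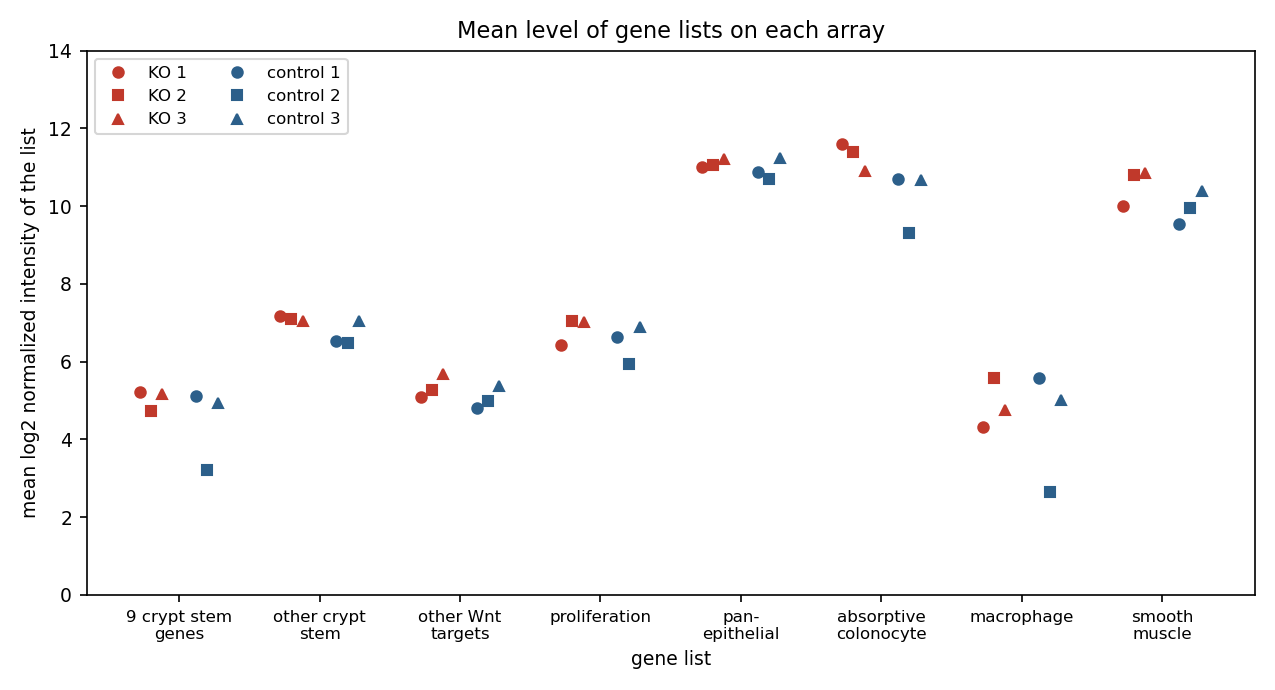
Mean log2 normalized intensity of 8 gene lists (vertical axis) on the 3 KO arrays (red) and the 3 control arrays (blue). Control 2 (blue square) lies at 3.22 for the 9 crypt genes, 2.64 for macrophage markers and 9.32 for absorptive colonocyte markers, the lowest of the 6 arrays in each, and at 10.70 among pan-epithelial markers, where the others lie between 10.88 and 11.24.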

How the data were processed

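Total RNA of 6 colon samples, 3 KO and 3 control, was amplified into biotinylated cRNA and hybridised to Illumina bead arrays, per the labels' protocols. The values used were the probe intensities deposited by the authors, on a linear scale. The software, its version and the background correction are not given in these sources. Medians (3.82) and maxima (16715) were equal on all 6 arrays, as after quantile normalization. The shares of probes at the floor differed, however, from 33.5% to 41.6%, so the low ends of the distributions were not equal. No value is below 1. Raw signals with detection p-values lie in 12 further deposited columns, not used here because their names match no sample label, so no detection call was made. The number of arrays limits the precision.

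Intensities were log2 transformed without an offset. Probes were named through the platform annotation (34885 with 1 symbol, 18 with several, 10378 with none). Of all probes, the 27168 whose log2 values averaged over the 40th percentile (0.96) entered the tests, and each gene was represented by its brightest kept probe, which gave 18918 features. The 2-sided comparison, KO minus control, used limma 3.58.1 under R 4.3.3. P-values were adjusted over every feature by Benjamini-Hochberg, with calls at 0.05. Probes other than the brightest were tested in the same way over all 27168 kept probes. From the lists of pathway genes the 3 with the smallest p were named, and genes of these lists named by another choice are marked as such. Single genes of the cell type marker lists were not chosen by p. The genes and lists were chosen with earlier results of these data known. No batch, slide or scan is given in the labels.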

Additional observations from a re-analysis of the deposited data

How the results depend on the processing

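No call for any of the 9 genes changed under the 14 alternatives tried, or the 13 that could be fitted for the 5 genes left out by the stricter filter. Adjusted p-values ranged from 0.683 to 1 for Rgmb and reached 0.684 at the lowest for Prom1. Of all features, 11 passed the adjusted threshold with no filter on dim probes, against 0 with the filter. At an unadjusted p under 0.05 the count of 814 features became 202 with the filter at the 70th percentile and 463 with log2(intensity + 16), and it ranged from 674 to 1309 (without control 3) when single arrays were left out. The count of the 9 genes at that level was 0, and 0 to 1 when single arrays were left out: Ascl2 without control 1 and Rgmb without control 3. The filter at the 70th percentile kept 4 genes, 3 of them higher, with a median of 1.24. Array weights, which were 0.20 for control 2 and 1.18 to 1.82 for the other arrays, gave a median of -0.13. The median was 0.12 with log2(intensity + 16), where Ascl2, Prom1 and Rgmb differed by 0.66, 0.71 and 0.58, and 0.26 with the mean of all kept probes. The median ranged from -0.017 to 0.98, and the genes higher in KO from 4 to 7, when single arrays were left out.

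Signs changed as follows, in log2 differences whose cause was not tested. With array weights Lgr5 was -0.13 and Smoc2 -0.38, and other probes changed to 0.56 and -0.17 (Ascl2) and to 0.038, 0.42 and 0.19 (Cd44). With log2(intensity + 16) Smoc2 was -0.074. With the mean of all kept probes Sox9 was 0.26, Aqp4 -0.27 and Cdk1 -0.15. When single arrays were left out, Lgr5 ranged from -0.32 to 0.98, Smoc2 from -0.68 to 1.05, Ephb3 from -0.62 to 0.20, Rnf43 from -1.61 to 0.47 and Prom1 from -0.017 to 3.24. Sox9 kept its sign, from -0.45 to -0.046. So did the second Prom1 probe, from -1.71 to -0.18, and the Rgmb probe ILMN_2941052, from 0.40 to 2.00. Rspo3 ranged from -0.38 to 1.68 and Rspo4 from -0.069 to 0.93. Of the other probes, those of Ascl2 ranged from -1.01 to 0.95 and from -0.32 to 0.89, those of Cd44 from -0.41 to 0.28, from -1.58 to 0.66 and from -1.42 to 0.34, and 1 of Rgmb from -1.05 to 0.21. The replicate block changed no call and no sign (Rgmb 1.58, 0 features called, 840 at an unadjusted p under 0.05). Whether same-numbered arrays were paired is not given in the labels. Their deviations correlated at 0.16, -0.09 and 0.04, where arrays of unlike number ranged from -0.21 to 0.13. The neqc alternative on the raw signals was not run, since its columns could not be tied to samples by name.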
